A study of Ovis aries with 32 samples.

Results

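The genes of the circadian clock are described here in perirenal preadipocytes of fetal sheep and in adipocytes differentiated from them. The members are 10 named genes of the clock: CLOCK, ARNTL (also called BMAL1), PER1, PER2, PER3, CRY1, CRY2, NR1D1, NR1D2 and DBP. Of these names, 9 were found among the 21271 genes of the table, with 18 of its 35219 transcripts, and no row carried the name PER3, which was therefore not analysed here. Across all 4 origins of the cells, differentiation came with higher PER1, ARNTL and CRY1 and with lower PER2, NR1D1 and DBP, whereas CLOCK, CRY2 and NR1D2 did not pass the test. PER1 and PER2, which belong to one family, thus moved in opposite directions, PER2 on few reads and on 1 listed transcript of short span. No member was called for growth restriction or for sex at either stage, and neither was any of the 12069 to 12138 genes tested.

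The molecular clock of mammalian cells is a loop of transcription factors and their repressors. CLOCK and ARNTL form a dimer that switches on the PER and CRY genes, the nuclear receptors NR1D1 and NR1D2 (REV-ERB alpha and beta) and the output factor DBP. PER and CRY proteins return to the nucleus and hold that dimer back, and the NR1D receptors repress ARNTL, so that in a running clock ARNTL is usually high when NR1D1 and DBP are low. Fat cells hold such a clock, which is known to be reset by glucocorticoids, by cAMP and by serum, and PER1 is a classic early target of the glucocorticoid receptor.

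The cells came from near-term singleton fetuses of Columbia-Rambouillet crossbred ewes. Ewes of the growth-restricted fetuses were kept hot, at 40°C for 12 h and at 35°C for the other 12 h of the day, between days 38 and 87 of pregnancy, and control ewes were kept at 22°C and pair-fed. The preadipocyte groups were control males (MC), control females (FC), growth-restricted males (MFGR) and growth-restricted females (FFGR), and the cells brought to mature adipocytes in culture were named MCD, FCD, MFGRD and FFGRD in the same order. Each of the 8 groups held 4 libraries, 32 in all, and the labels do not say whether libraries of a group came from separate fetuses, so p-values measure the spread between libraries, which may in part be technical. The differentiation agents and the time of day of collection are not given in the sources used here, and a single collection per library cannot show a rhythm. Values are read counts that the authors normalized between libraries, given here as sums over the transcripts of a gene. They are not corrected for transcript length, so levels are compared between groups and not between genes.

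The libraries held approximately 7.76 to 21.3 M reads (median 13.4 M). The cell labels were checked with markers. Of 9 listed adipocyte markers tested, 8 were higher after differentiation, among them FABP4 by 9.55 and ADIPOQ by 6.82 on the log2 scale. The stages nevertheless overlapped: FABP4 was at 215 in the lowest differentiated and 445 in the highest preadipocyte library, ADIPOQ at 8.59 and 216, and the summed adipocyte markers at 443 and 2123. Of 7 preadipocyte and stromal markers tested, 6 had negative differences, with the matrix genes DCN (-1.28) and LUM (-0.61) called as lower and THY1 (1.65) as higher. DCN had medians of 43590 and 18868 and LUM of 21382 and 13092.5 before and after differentiation, and both stood at 7744 or more in every library. The listed preadipocyte gene DLK1 was at 0 in 14 of 16 preadipocyte and 11 of 16 differentiated libraries and was not tested. The endothelial gene CDH5 was at 0 in 11 of 16 preadipocyte and 14 of 16 differentiated libraries and reached 2.31 at most. The other endothelial genes were present, with VWF at up to 40.4, KDR at up to 56.3 and PECAM1 at up to 272. The leukocyte gene PTPRC was at 0 in 11 and 9 libraries and reached 55.8 in 1 preadipocyte library. By contrast, CD68 (33.3 to 513) and CD14 (22.4 to 699) were above 0 in every library. Markers of other cells also moved with the stage, and their part in the results below was not tested. Mural and muscle markers summed to 4786 to 50530.4 in preadipocytes and 556 to 14072 in differentiated cells, with 2 of 3 tested called as lower. Endothelial markers summed to 4.32 to 67.8 and 1.08 to 284 (1 of 3 lower), epithelial markers to 12.9 to 644 and 1.58 to 77.7 (1 of 3 lower), and leukocyte markers to 88.4 to 542 and 114 to 902 (1 of 2 higher, 1 lower). The proliferation gene TOP2A was higher after differentiation by 1.72 on the log2 scale. A clustering tree of all tested transcripts set 7 libraries apart from the other 25: FC replicate 2, MFGR replicate 1, FFGR replicates 2 and 3, MCD replicate 4, MFGRD replicate 1 and FFGRD replicate 3. In these 7, values fell most steeply with the genomic span of a transcript (slopes of -0.452 to -0.301 log2 units per doubling of the span, against -0.275 to -0.0123 in the others). Because several clock genes differ between these 7 libraries and the rest, each main result is also given without them.

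**Figure D1:**
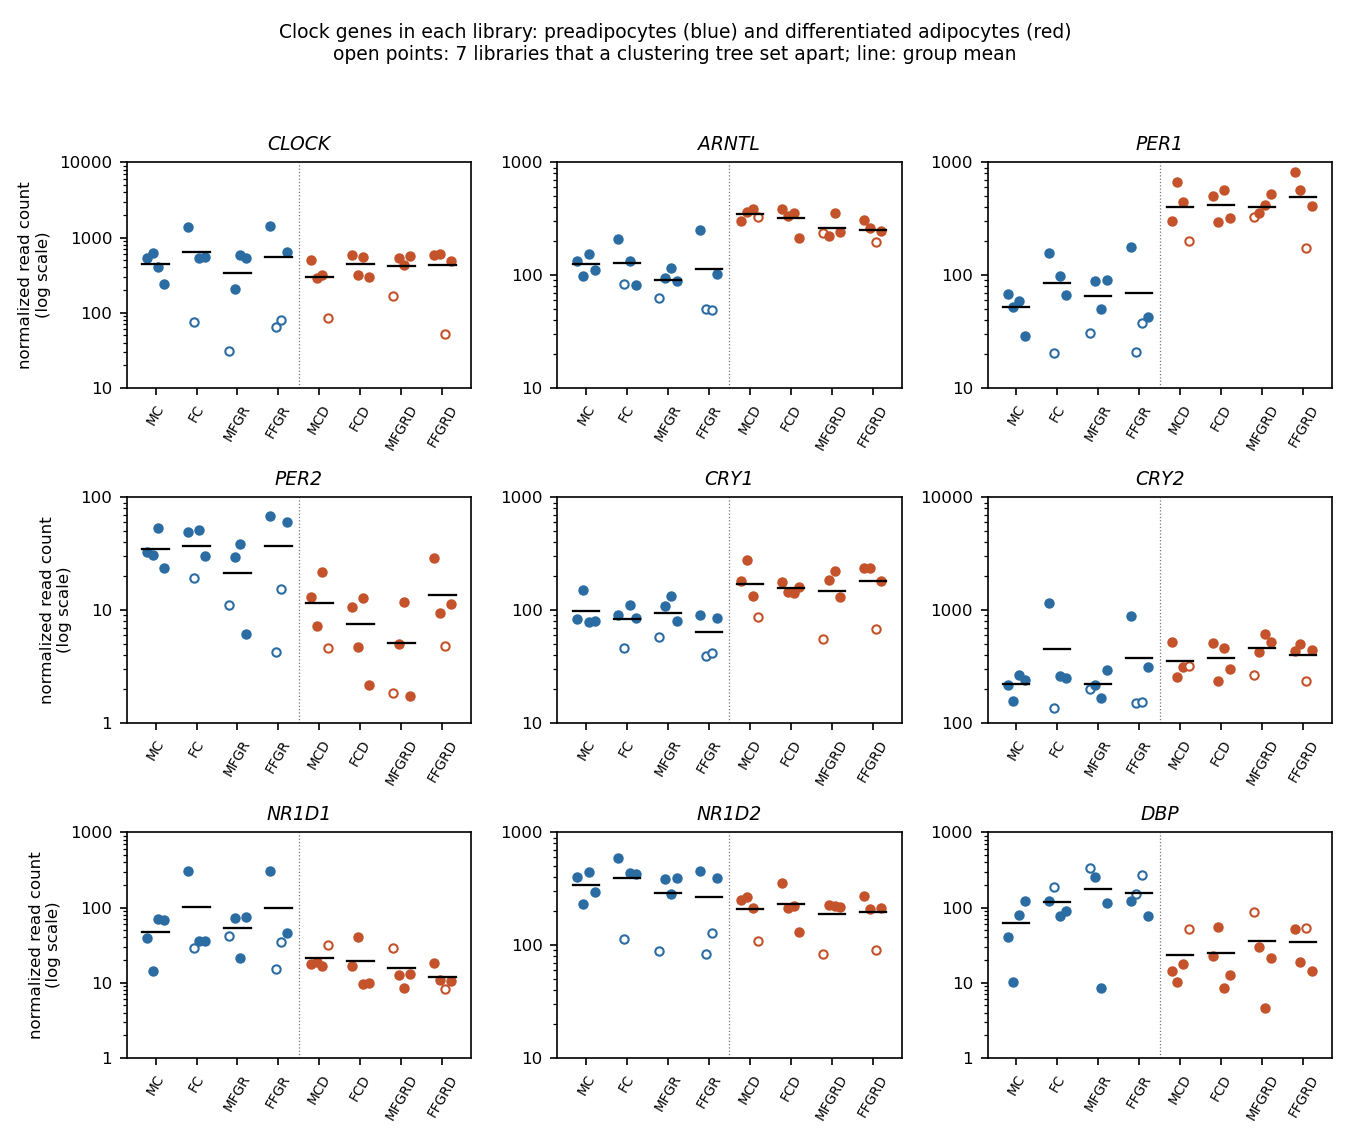
Normalized read count (log axis) of each of the 9 clock genes in every library, by group, with preadipocytes in blue, differentiated adipocytes in red, group means as black lines and the 7 libraries that the clustering tree set apart as open points. PER1 reaches 20.3 to 178 in preadipocytes and 174 to 816 in differentiated cells, and in the CLOCK panel the open points lie below all others.

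The test was run on log2(value + 1) with limma over all genes that reached 10 in 4 or more libraries, and a gene was called at a Benjamini-Hochberg adjusted p below 0.05 and a fold change above 1.5. In the fit over all 32 libraries, 12737 genes were tested and 27.2% were called, 12.4% as higher and 14.8% as lower after differentiation. All 9 clock genes were tested, of which 6 were called, 3 higher and 3 lower. The median log2 difference over the 9 was 0.09, against 0.03 over all genes tested. These are bulk libraries, in which fewer cells with a transcript and less of it per cell cannot be told apart. Every log2 difference below is that of log2(value + 1), differentiated minus preadipocytes, which understates the change of low genes.

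ARNTL (ENSOARG00020009923; Oar_rambouillet_v1.0, chromosome 15, 42323672 to 42403144) encodes BMAL1, the partner of CLOCK. In male controls its values in replicates 1 to 4 were 133, 98.6, 155 and 111 before and 301, 366, 389 and 326 after differentiation. In female controls they were 208, 84.0, 133 and 82.6 before and 385, 335, 358 and 212 after. In both control origins the lowest differentiated library lay above the highest preadipocyte library. In MFGR the values were 62.8, 94.5, 117 and 88.9, and in MFGRD 235, 225, 357 and 240.4. In FFGR they were 250.4, 50.1, 48.9 and 102, and in FFGRD 309.8, 261, 196 and 246. The groups were again apart in growth-restricted males, but not in growth-restricted females, where FFGR replicate 1 was as high as the differentiated libraries. The mean over all preadipocytes was 114 ± 54.2 and over all differentiated libraries 297 ± 65.6 (SD, n = 16 each), and 10 of the 16 differentiated libraries exceeded every preadipocyte library. The log2 difference was 1.48 (SE 0.19, adjusted p = 6.14e-07, limma). ARNTL was higher after differentiation in all 16 same-numbered pairs of libraries, by 1.24 to 5.22 times. The labels do not say what a shared number means, and such pairs were not counted over all genes. The largest ratio was that of FFGR replicate 2, a library set apart, and in FFGR the numbers did not appear to pair replicates 1 and 2.

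CLOCK (ENSOARG00020016714; chromosome 6, 78026605 to 78145220), the other subunit, averaged 492 ± 414 in preadipocytes and 398 ± 184 in differentiated cells (SD, n = 16 each). Its log2 difference was 0.09 (95% interval -0.92 to 1.09, adjusted p = 0.922, limma), an interval that leaves room for a change of nearly 1 log2 unit either way. CLOCK separated the set of 7 libraries from the rest at both stages. Its values were 30.7 to 167 in those 7 and 205 to 1405 in the other 25, with no overlap, and the part of the span slope in this difference was not tested. Without the 7 libraries the log2 difference of CLOCK was -0.37 (adjusted p = 0.193, limma). The highest values, 1378 and 1405, belonged to FC replicate 1 and FFGR replicate 1, and the next highest library stood at 640.0. The log2 ratio of ARNTL to CLOCK within a library, with 1 added to each value, averaged -1.59 ± 1.16 in preadipocytes and -0.20 ± 1.00 in differentiated cells (SD, n = 16 each), with overlapping ranges.

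**Figure D2:**
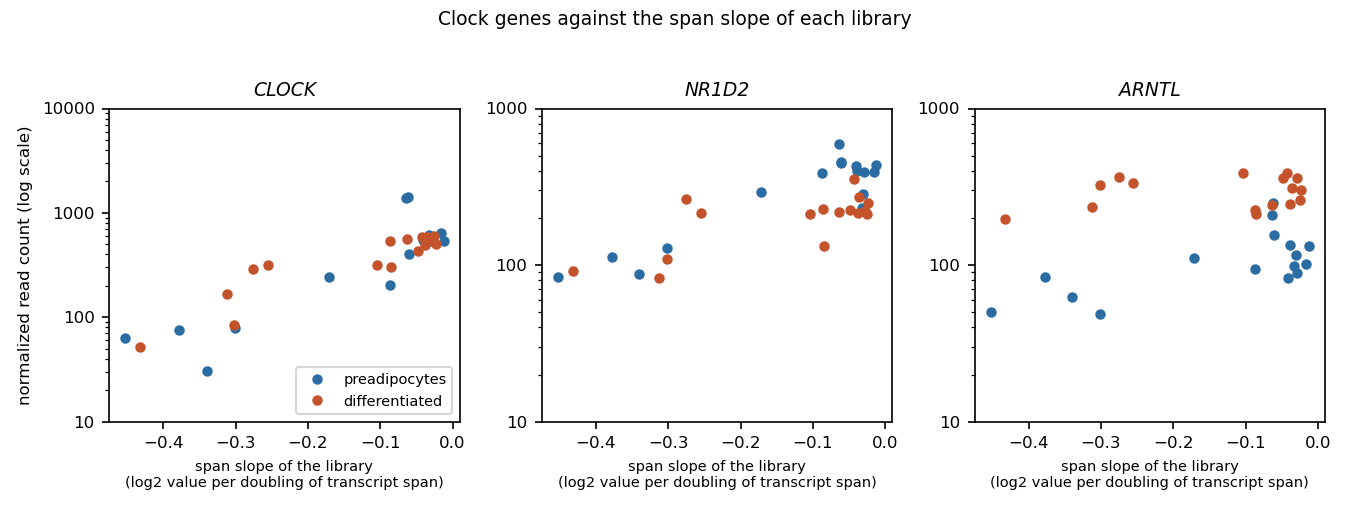
Normalized read count (log axis) of CLOCK, NR1D2 and ARNTL in the 32 libraries against the span slope of the library, the change in log2 value per doubling of a transcript's genomic span. CLOCK and NR1D2 are lowest in the 7 libraries with slopes of -0.452 to -0.301, at both stages, whereas ARNTL separates mainly by stage. Among preadipocytes ARNTL is also low in those libraries, at 48.9 to 84.0 against 82.6 to 250.4 in the others.

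PER1 (ENSOARG00020022543; chromosome 11, 35633583 to 35648557), a repressor of the CLOCK and ARNTL dimer, had the largest log2 difference of the 9 genes. In MC its values were 67.4, 52.0, 58.4 and 28.8, and in MCD 301, 669.7, 446 and 203. In FC they were 157, 20.3, 98.6 and 66.3, and in FCD 505, 294, 567 and 321. The lowest MCD and FCD libraries stood above every preadipocyte library of their own origin. In MFGR the values were 30.7, 89.4, 49.8 and 90.4, and in MFGRD 326, 357, 420.4 and 521. In FFGR they were 178, 20.8, 37.6 and 42.2, and in FFGRD 816, 571, 174 and 408. The male growth-restricted groups were apart, and in the female ones FFGR replicate 1 stood just above FFGRD replicate 3. Of the 16 differentiated libraries 15 exceeded every preadipocyte library. The ratio of the group means was 7.84 in MC, 4.93 in FC, 6.24 in MFGR and 7.08 in FFGR. Over all origins the log2 difference was 2.81 (SE 0.29, adjusted p = 2.59e-08, limma). PER1 was higher in all 16 same-numbered pairs, by 3.21 to 27.4 times, the largest ratio again in FFGR replicate 2.

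PER2 (ENSOARG00020001611; chromosome 1, 2898396 to 2903418), the second PER repressor, moved the other way. It was listed as 1 transcript with a span of 5023 bases, against 14975 for that of PER1. Whether this transcript covers the whole gene was not checked. In MC its values were 32.9, 30.6, 53.2 and 23.8, and in MCD 13.1, 7.24, 21.7 and 4.61. In FC they were 49.0, 19.3, 51.3 and 30.4, and in FCD 10.7, 4.73, 12.7 and 2.14. Every differentiated control library was below every preadipocyte library of its origin. In MFGR the values were 11.1, 29.7, 38.5 and 6.17, and in MFGRD 1.83, 5.02, 11.7 and 1.73. In FFGR they were 68.2, 4.26, 15.3 and 60.7, and in FFGRD 29.2, 9.51, 4.76 and 11.4. The growth-restricted groups overlapped. The log2 difference over all origins was -1.70 (SE 0.37, adjusted p = 0.000623, limma), and PER2 was lower in 15 of 16 same-numbered pairs. PER2 was the least deeply measured member: the differentiated libraries held approximately 1.02 to 37.0 reads of it (median 8.90), and in 2 of them the value stood for 3 reads or fewer, so single libraries at these levels carry a large counting error.

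The CRY genes encode the cryptochromes, which repress together with PER. CRY1 (ENSOARG00020017640; chromosome 3, 188087493 to 188173813) rose. In MC its values were 83.2, 151, 78.7 and 80.4, and in MCD 183, 276, 132 and 86.2. In FC they were 90.8, 45.9, 111 and 84.9, and in FCD 179, 145, 143 and 162, the 1 origin in which the groups did not overlap. In MFGR the values were 57.9, 109.7, 133 and 79.4, and in MFGRD 55.7, 187, 223 and 131. In FFGR they were 90.0, 39.0, 41.4 and 85.6, and in FFGRD 237, 235, 68.0 and 181. At each stage the libraries among the 7 set apart were the lowest, at 39.0 to 57.9 against 78.7 to 151 in the other preadipocytes and at 55.7 to 86.2 against 131 to 276 in the other differentiated libraries. The log2 difference was 0.91 (SE 0.22, adjusted p = 0.00207, limma), with 15 of 16 same-numbered pairs higher after differentiation.

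CRY2 (ENSOARG00020020700; chromosome 15, 82132243 to 82166471) averaged 317 ± 286 in preadipocytes and 398 ± 123 in differentiated cells (SD, n = 16 each). In preadipocytes its values ran from 136 to 1164 with a median of 229, and in differentiated cells from 235 to 615 with a median of 426. The log2 difference was 0.58 (95% interval 0.06 to 1.1, adjusted p = 0.0823, limma), which did not pass the test. FC replicate 1 at 1164 and FFGR replicate 1 at 888 stood far above the other preadipocyte libraries, the same 2 libraries that held the highest CLOCK values. Without these 2 the log2 difference was 0.87 and passed the test (adjusted p = 0.000390, limma). Without the 7 libraries set apart it was 0.37 and did not pass (adjusted p = 0.232, limma). The result on CRY2 thus depended on which libraries were left out. It also depended on the model. In a fit with same-numbered libraries as blocks the adjusted p was 0.0263 (limma), and the log2 difference of 0.58 lay just under the fold limit.

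NR1D1 (ENSOARG00020009562; chromosome 11, 22783221 to 22790281), the receptor that represses ARNTL, fell. In MC its values were 39.2, 14.2, 71.4 and 67.3, and in MCD 17.9, 19.1, 16.9 and 31.4. In FC they were 305, 29.3, 35.8 and 35.5, and in FCD 16.7, 40.5, 9.67 and 9.87. The female means of preadipocytes rested on 1 library, and the groups overlapped in both control origins. In MFGR the values were 42.5, 73.7, 21 and 76.0, and in MFGRD 28.8, 12.6, 8.52 and 12.9. In FFGR they were 303, 15.3, 34.9 and 45.5, and in FFGRD 18.2, 10.9, 8.21 and 10.5. Of the 16 differentiated libraries 8 lay below every preadipocyte library. The log2 difference was -1.63 (SE 0.37, adjusted p = 0.00103, limma), with 14 of 16 same-numbered pairs lower. Such counts did not set the called members apart. Of the members not called, CRY2 was higher in 14 of 16 pairs, NR1D2 lower in 13 and CLOCK lower in 10. The span of NR1D1 shares 363 bases with that of THRA, a thyroid hormone receptor gene, and whether counting used the strand is not given in the sources used here, so reads from the shared end are uncertain.

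NR1D2 (ENSOARG00020020196; chromosome 26, 45584582 to 45611401), the paralog of NR1D1, averaged 323 ± 154 in preadipocytes and 206 ± 71.4 in differentiated cells (SD, n = 16 each). The log2 difference of -0.52 (95% interval -1.1 to 0.06, adjusted p = 0.169, limma) did not pass the test. As for CLOCK, the 7 libraries set apart lay below all others, at 82.6 to 128 against 132 to 589. Without them the preadipocytes ran from 233 to 589 and the differentiated libraries from 132 to 354, and the log2 difference was -0.78 (adjusted p = 0.000233, limma), so the call on NR1D2 depended on these libraries. With same-numbered libraries as blocks the adjusted p was 0.0488 (limma), at a log2 difference under the fold limit.

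DBP (ENSOARG00020017101; chromosome 14, 58729241 to 58735415), a PAR bZIP factor that carries the rhythm to output genes, fell as well. In MC its values were 40.4, 10.1, 79.4 and 121, and in MCD 14.5, 10.2, 17.8 and 51.1. In FC they were 121, 188, 78.4 and 89.7, and in FCD 22.8, 55.8, 8.58 and 12.7. The control groups overlapped in males and were apart in females. In MFGR the values were 333, 255, 8.62 and 115, and in MFGRD 88.4, 30.2, 4.65 and 21.6. In FFGR they were 122, 154, 275 and 77.7, and in FFGRD 52.5, 18.7, 54.1 and 14.2. The growth-restricted groups were apart in females only, and MC replicate 2 and MFGR replicate 3 were already low before differentiation. The mean was 129 ± 92.6 in preadipocytes and 29.9 ± 23.5 in differentiated cells (SD, n = 16 each). The log2 difference was -1.97 (SE 0.45, adjusted p = 0.00123, limma), and DBP was lower in 15 of 16 same-numbered pairs. In contrast to CLOCK and NR1D2, DBP was high in the 7 libraries set apart, with medians of 231 against 84.6 in the other preadipocytes and 54.1 against 17.8 in the other differentiated libraries, and without those libraries its log2 difference was -1.97 (adjusted p = 0.00366, limma).

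Members were also compared within each library, as log2 ratios of value + 1. The ratio of ARNTL to NR1D1 was 1.05 ± 0.91 in preadipocytes (range -0.55 to 2.71) and 4.16 ± 0.62 in differentiated cells (range 2.99 to 5.24; SD, n = 16 each), so that all 16 differentiated libraries lay above all 16 preadipocyte libraries. By group its mean was 0.75 to 1.57 before and 3.99 to 4.33 after differentiation. The log2 ratio of PER1 to PER2 was 1.07 ± 0.97 in preadipocytes (range -0.51 to 3.67) and 5.58 ± 0.91 in differentiated cells (range 4.29 to 7.58; SD, n = 16 each), again with no overlap. With nothing added to the values, so that the scaling between libraries cancels, the stages did not overlap either, at -0.55 to 2.80 and 3.03 to 5.39 for ARNTL to NR1D1 and at -0.52 to 3.87 and 4.36 to 8.24 for PER1 to PER2. These 2 ratios join members called in opposite directions and are given as a description. The 7 libraries set apart lay within the range of the others of their stage in both ratios, except that the lowest differentiated ratio of ARNTL to NR1D1, 2.99, belonged to 1 of them, just under 3.02 in the next. The log2 ratio of CRY1 to CRY2, in contrast, was -1.66 ± 0.90 before and -1.32 ± 0.58 after differentiation (SD, n = 16 each), with overlapping ranges.

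ARNTL, PER1 and PER2 were also lower in the 7 libraries set apart, with overlap. Their medians were 56.4, 25.8 and 13.2 against 113.5, 66.8 and 35.7 in the other preadipocytes. In differentiated cells they were 235, 203 and 4.61 against 310, 446 and 10.7. Without the 7 libraries set apart all 6 called members were called again (limma). The log2 difference was then 2.60 for PER1, 1.23 for ARNTL, 0.93 for CRY1, -1.93 for PER2 and -2.10 for NR1D1. Leaving out FC replicate 1 and FFGR replicate 1 instead gave a smaller drop of NR1D1, -1.22 (adjusted p = 0.00101, limma). ARNTL was then at 1.67 and PER2 at -1.54.

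**Figure D3:**
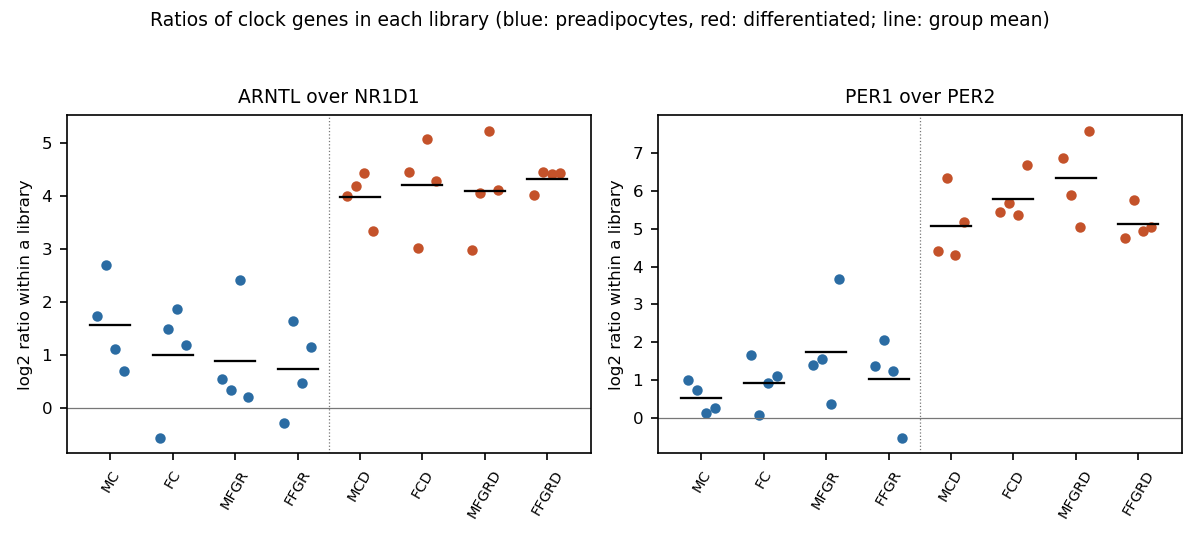
Log2 ratio, of value + 1, of ARNTL to NR1D1 (left) and of PER1 to PER2 (right) in each library by group, with preadipocytes in blue, differentiated adipocytes in red and group means as black lines. The lowest differentiated library, at 2.99 on the left and 4.29 on the right, stands above the highest preadipocyte library, at 2.71 and 3.67.

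The study compared each differentiated group with its own preadipocytes, and the same comparison was made for the members on the 8 libraries of each origin. Over all genes tested, 7.53% were called in MCD against MC (3.33% higher, 4.21% lower) and 0.43% in FCD against FC (0.181% higher, 0.249% lower). In MFGRD against MFGR 3.38% were called (1.22% higher, 2.16% lower), and in FFGRD against FFGR 2.67% (0.914% higher, 1.76% lower). PER1 and ARNTL were the members called in males, with log2 differences of 2.87 (adjusted p = 0.00493) and 1.48 (adjusted p = 0.00868) in MCD and of 2.73 (adjusted p = 0.00999) and 1.54 (adjusted p = 0.0287) in MFGRD (limma). In females limma called 0 of the 9 members, and 5 had an unadjusted p below 0.05 in each origin, as did 12.6% of all genes in FCD and 15.5% in FFGRD. PER1 was higher by 2.56 in FCD (adjusted p = 0.111) and by 3.08 in FFGRD (adjusted p = 0.0643), and ARNTL by 1.41 (adjusted p = 0.157) and 1.48 (adjusted p = 0.219, limma), values close to those of the males but with larger standard errors. The adjusted p for ARNTL in MFGRD was above 0.05 when any 1 of 6 libraries was left out, with the log2 difference between 1.39 and 1.61.

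By deviations from group means, each FC and MFGR library was most like the differentiated library of its own number. This did not hold for MC replicate 2 or for FFGR replicates 1 and 2. Whether such likeness reflects a shared fetus or the quality of the libraries was not tested. A fit with same-numbered libraries as blocks changed the calls over all genes, to 16% in MCD, 1.69% in FCD, 17.9% in MFGRD and 1.57% in FFGRD. With it, 3 members were called in MCD, PER1 and ARNTL as higher and PER2 as lower (adjusted p = 0.0378). In FCD the paired fit called PER1 as higher (adjusted p = 0.0433) and DBP as lower (adjusted p = 0.0410), 2 members against 0 without the block. In MFGRD it called 6 members against 2, with PER1, ARNTL and CRY2 higher and PER2, NR1D1 and DBP lower (limma, adjusted p of 0.00338 to 0.0433). In FFGRD it called 0. The sign of the log2 difference of each of the 6 genes called over all origins was the same in all 4 origins. These genes were called on the mean of the same 4 differences, which favours equal signs. Equal signs were not counted over all genes, so they are no separate evidence. PER1 and ARNTL did not overlap between the stages in 3 of 4 origins, as did 2.7% of all genes in the higher and 3.4% in the lower direction. PER2 was apart in MC and FC and DBP in FC and FFGR, and at least 2 of 4 origins were apart for 5.55% of all genes in the higher and 6.8% in the lower direction.

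**Figure D4:**
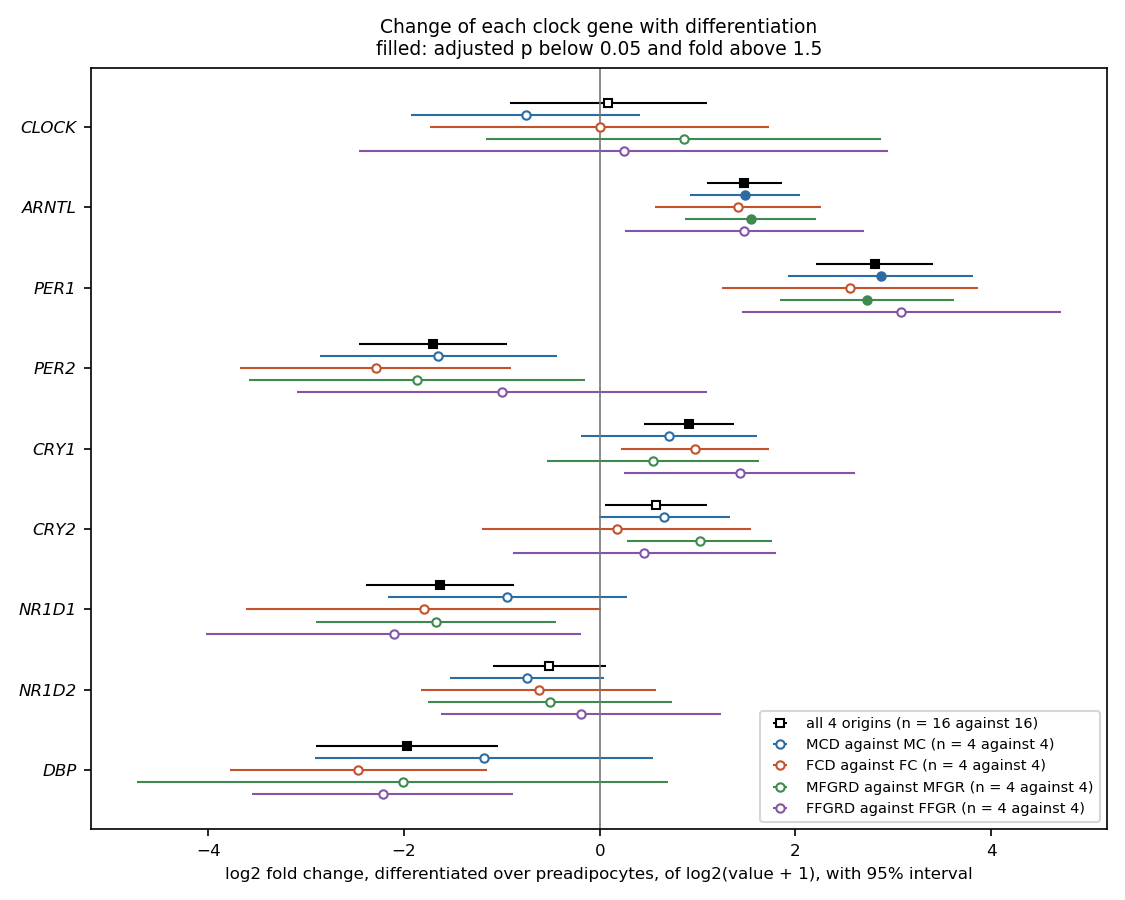
Log2 fold change of each clock gene, differentiated over preadipocytes, with its 95% interval from limma, for all 4 origins together (black squares) and for each origin (circles), filled where the gene was called. PER1 and ARNTL are right of 0 with similar values in every origin, at 2.56 to 3.08 and 1.41 to 1.54, and the intervals of CLOCK span 0 throughout.

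Whether the response differed with growth restriction or with sex was tested directly, as a difference between log2 differences over all 32 libraries. In the 4 comparisons limma called 0 members and 0 of 12737 genes (0%), and none of the 36 tests of members had an unadjusted p below 0.05, against 61 to 159 genes at that level. For PER1 the response of the growth-restricted origins exceeded that of the controls by 0.19 on the log2 scale (95% interval -1.0 to 1.38), and for ARNTL by 0.06 (95% interval -0.70 to 0.83). Both intervals include 0 and are wide against the responses themselves.

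The sexes and the growth-restricted and control libraries were also compared within each stage. In 12 comparisons within a stage limma called 0 members and 0 of 12069 to 12138 genes (0%), with 42 to 470 genes at an unadjusted p below 0.05. None of the 108 tests of members had an unadjusted p below 0.05, and the log2 differences of members ran from -1.32 for PER2 in MFGRD against FFGRD to 1.1 for DBP in MFGR against MC. The lowest unadjusted p, 0.0569, belonged to ARNTL in differentiated cells, where growth-restricted libraries were lower by 0.37 on the log2 scale (95% interval -0.75 to 0.01, adjusted p = 1.00, limma). Its means were 346 ± 39.6 in MCD, 323 ± 76.7 in FCD, 264 ± 62.3 in MFGRD and 253 ± 47.0 in FFGRD (SD, n = 4 each). In preadipocytes the corresponding difference was -0.43 (95% interval -1.13 to 0.27, adjusted p = 0.833), and it was -0.01 without the 7 libraries set apart, 3 of which were growth-restricted preadipocytes.

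Other genes linked to the clock were taken from a list of 29 names beside the members. Of these, 25 were listed and 23 tested. Of the 23, 6 were called as higher and 2 as lower, against 12.4% and 14.8% of all genes. Their median log2 difference was 0.20 against 0.03 over all genes. NPAS2, which can take the place of CLOCK beside ARNTL, was higher by 1.71 (SE 0.42, adjusted p = 0.00215), at 0 to 37.1 in preadipocytes and 5.86 to 30.3 in differentiated cells. USP2, a deubiquitinase that acts on clock proteins, was higher by 2.28 (SE 0.34, adjusted p = 5.94e-06). TIMELESS, a replication protein with ties to the clock, rose by 1.28, NOCT (nocturnin) by 1.25 and the deacetylase gene SIRT1 by 0.76 (limma). Among the relatives of DBP, which bind the same elements, HLF rose by 0.97 (adjusted p = 0.0171) and TEF was lower by 0.92 (log2 difference -0.92, adjusted p = 0.000338), so that the 3 PAR bZIP genes did not move as a group. That rests on HLF alone, a low gene, at 2.61 to 27.7 in preadipocytes and 6.92 to 48.2 in differentiated cells.

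BHLHE40 (DEC1), a repressor of E-box genes, fell by 1.56 (SE 0.44, adjusted p = 0.00638, limma), and its paralog BHLHE41 differed by -0.37 (adjusted p = 0.441). Without FFGR replicate 1 the log2 difference of BHLHE40 was -1.29. RORA, the activator that competes with the NR1D receptors for ARNTL, differed by 0.76 (adjusted p = 0.0998), which did not pass the test. ARNTL2 differed by 0.08 (adjusted p = 0.884), NFIL3 by -0.18 (adjusted p = 0.568) and CIART by -0.39 (adjusted p = 0.543), none of them called. Without the 7 libraries set apart NOCT (adjusted p = 0.0986) and SIRT1 (log2 difference 0.46, under the fold limit) were no longer called.

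Because PER1 is known to be induced by glucocorticoids and by cAMP, 2 lists of other genes with these properties were read beside it. Of 10 glucocorticoid-induced genes tested, 8 were called as higher, against 12.4% of all genes. Their median log2 difference was 1.96 against 0.03 over all genes. ZBTB16 was higher by 8.93 (SE 0.41), PDK4 by 5.87 (SE 0.59) and FKBP5, a co-chaperone of the receptor, by 5.29 (SE 0.31, adjusted p = 2.86e-12, limma). The study had already reported these genes as raised in every origin of the same libraries. The list is therefore given as a description and is no test of PER1. FKBP5 stood at 101 to 906 in preadipocytes and 4118 to 31697 in differentiated cells, with no overlap. KLF9 (2.48), KLF15 (2.0), SESN1 (1.92), SGK1 (1.08) and DUSP1 (0.64) were also called, while CEBPD and ERRFI1 were not. Without the 7 libraries set apart SGK1 and DUSP1 were not called, with log2 differences of 1.09 (adjusted p = 0.0984) and 0.50 (adjusted p = 0.129). Of 10 cAMP-linked genes tested, NR4A3 (1.47, adjusted p = 0.00862) and PPARGC1A (1.46, adjusted p = 0.0129, limma) were called as higher and none as lower. Over all genes the shares were 12.4% and 14.8%. Without those 7 libraries NR4A3 was not called (adjusted p = 0.0577, limma). The part of the differentiation medium in any of these values was not tested.

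**Figure D5:**
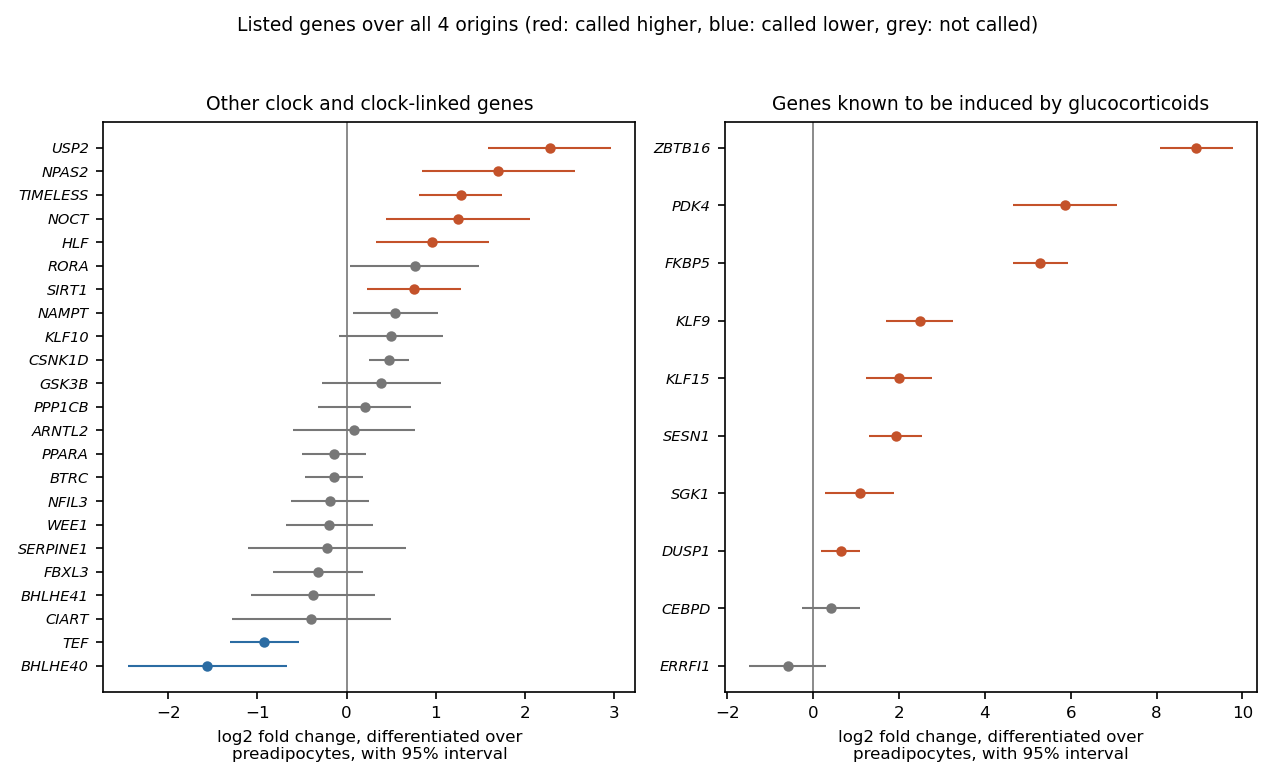
Log2 fold change over all 4 origins, with its 95% interval from limma, for the listed clock-linked genes (left) and for genes known to be induced by glucocorticoids (right), red where called as higher, blue where called as lower and grey otherwise. On the left 6 of 23 genes are red and 2 blue, and on the right 8 of 10 are red, led by ZBTB16 at 8.93.

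For each called member the 3 genes with the most similar pattern over the 32 libraries were found by Pearson's r of log2 values, which share stage, library and depth and are given with no test. PER1 followed FURIN (r = 0.92), FKBP5 (0.92) and MGAT4A (0.92) most closely, and ARNTL followed FURIN (0.92), PER1 itself (0.91) and DNM2 (0.91). FURIN, a proprotein convertase gene, thus led both lists. CRY1 was nearest to EIF4EBP2 (0.91), INTS7 (0.88) and ZNF281 (0.88), and DBP to RAB3IL1 (0.90), LRRN4CL (0.89) and VPS11 (0.89). The lower likeness values were those of PER2, with TRIM8 (0.81), ANKS6 (0.80) and KLF11 (0.79), and of NR1D1, with STYXL2 (0.85), BDKRB2 (0.84) and an unnamed gene (0.83).

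Within a stage, 6 pairs of members that the loop links were correlated across libraries, 12 relations in all. Since the 7 libraries form a cluster of their own, r is given over the other 12 preadipocyte and 13 differentiated libraries, a choice made after the data were seen. In preadipocytes NR1D1 and DBP, both targets of the CLOCK and ARNTL dimer, were high in the same libraries, with r = 0.70 (permutation p = 0.0147, adjusted p = 0.0442) and rho = 0.78 (permutation p = 0.00351, adjusted p = 0.0421). Over all 16 preadipocyte libraries, however, the same pair had r = 0.36 (adjusted p = 0.270) and rho = 0.21 (adjusted p = 0.484, permutation tests), so the relation rested on leaving out the libraries set apart. Within the 12 libraries, leaving out the 2 farthest from the median of NR1D1 gave r = 0.89. In differentiated cells the same pair had r = 0.69 (permutation p = 0.0101, adjusted p = 0.0404) and rho = 0.60 (permutation p = 0.0333, adjusted p = 0.200), but r was 0.35 without the 2 farthest libraries, and over all 16 libraries r was 0.60 (permutation test, adjusted p = 0.0788). NR1D1 with NR1D2 in preadipocytes had r = 0.73 (permutation p = 0.00847, adjusted p = 0.0404), rho = 0.57 (permutation p = 0.0592, adjusted p = 0.237) and r = 0.61 without the 2 farthest libraries, against r = 0.58 over all 16 libraries (permutation test, adjusted p = 0.0788). ARNTL with NR1D1 in preadipocytes had r = 0.72 (permutation p = 0.00952, adjusted p = 0.0404) and rho = 0.38 (permutation p = 0.228, adjusted p = 0.455), and it rested on FC replicate 1 and FFGR replicate 1, without which r was 0.05. Over all 16 libraries its r was 0.70 (permutation test, adjusted p = 0.0326), and 0.33 without the 2 farthest. The other 8 relations had adjusted p above 0.05, and ARNTL with DBP had r = 0.14 in preadipocytes (permutation p = 0.678) and -0.16 in differentiated cells (permutation p = 0.610), against -0.31 and -0.34 over all 16 libraries of each stage (permutation p = 0.248 and 0.203).

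At the level of transcripts, 13 of the 18 listed for the members passed the filter over 32 libraries, and 6 were called, against 19.8% of the 19469 transcripts tested. They were PER1-201, ARNTL-203, CRY1-201, PER2-201, DBP-201 and NR1D1-201, 1 for each called gene. ARNTL-203 held all of the ARNTL signal in every preadipocyte library and 81.4% to 100% of it in the differentiated ones. NR1D1-201 was lower by 2.04 on the log2 scale (log2 difference -2.04, SE 0.44, adjusted p = 0.00101, limma), a larger drop than that of the gene sum. NR1D1-202 (log2 difference -0.28, adjusted p = 0.817, limma) was above 0 in 7 of 32 libraries. In MCD replicate 4, a library set apart, NR1D1-201 was at 0 and NR1D1-202 at 31.4. Without that library the log2 difference of NR1D1-201 was -1.78. CRY2 was split between CRY2-202 (53.6% ± 6.11 of the gene in preadipocytes, 56.2% ± 6.79 in differentiated cells, SD, n = 16 each) and CRY2-203, with log2 differences of 0.64 (adjusted p = 0.0656) and 0.48 (adjusted p = 0.260). CLOCK-201 held 75.7% ± 11.4 of CLOCK before and 79.4% ± 8.18 after differentiation (SD, n = 16 each). NR1D2-201 held 94.1% ± 6.56 and 93.5% ± 2.81 of NR1D2 (SD, n = 16 each). The split of reads between transcripts of a gene is an estimate of the authors' quantification, so these shares are less certain than the sums.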

How the data were processed

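RNA sequencing of 32 libraries was deposited as 1 table of 35219 transcripts. The authors discarded reads of average quality below 34, quantified transcripts with Salmon against Oar_rambouillet_v1.0, and deposited signal values, which are read counts divided by size factors of DESeq2 (median-ratio method). The submitters' processing notes name FastQC 0.11.9. The values were not whole reads, so no count test was run. The fold change and p-value columns of the table hold the authors' own comparisons and were not used.

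Transcripts were summed by gene. Values were tested as log2(value + 1) with limma 3.58.1 (R 4.3.3, mean-variance trend) on genes at 10 or more in at least 4 libraries, and p-values were adjusted by Benjamini-Hochberg over all genes tested. Correlations used 100000 permutations (Python 3.11.15, scipy 1.17.1). The fits were tested on simulated data. A value of 10 stood for 5.60 to 14.4 reads. The members and lists were chosen with earlier results of these data known. All members and their tested transcripts are named, with the called genes of the related lists and the relatives of the members.

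Whether replicate numbers pair preadipocyte and differentiated libraries was checked by the correlation of their deviations from group means. It was 0.16 to 0.61 in MC, 0.30 to 0.51 in FC and 0.39 to 0.67 in MFGR, and -0.40 to 0.56 in FFGR. The labels do not say what a shared number means.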

Additional observations from a re-analysis of the deposited data

Results flagged for a closer look

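In 8 of the 72 combinations of a clock gene and a group, 1 library stood far from the other 3 on unlogged values. Chance flags about 1 in 20 groups of independent, normally distributed values, which these are not, so no excess over chance is read from the count. On log2(value + 1), a scale added after the data were seen, 5 combinations passed the same limit, 4 of them among the 8: NR1D1 in FC, ARNTL in MFGRD, CRY1 in MC and NR1D2 in MFGRD. NR1D1 was at 305 in FC replicate 1, with the next library at 35.8. NR1D1 was at 303 in FFGR replicate 1, with the next at 45.5. CRY2 was at 1164 in FC replicate 1 and PER1 at 178 in FFGR replicate 1, with 262 and 42.2 in the next libraries. These 4 values belong to the 2 libraries with the highest CLOCK values. NR1D2 was at 82.6 in MFGRD replicate 1, below 219.7 in the next library, and NR1D1 was at 31.4 in MCD replicate 4, above 19.1. Both of these libraries are among the 7 set apart. ARNTL was at 357 in MFGRD replicate 3, with the next library at 240.4. CRY1 was at 151 in MC replicate 2, with the next at 83.2.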

How the results depend on the processing

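Over all 4 origins the 6 called genes kept their call on leaving out each library in turn. The number of members called over all origins was 6 to 7 in those fits and 2 to 8 over the other settings, so the split into called and not called members was not fixed. The limits are the depth of PER2, the spread between libraries and the 7 libraries set apart, a set chosen after the data were seen.

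With a minimum of 20 per M reads in 3 libraries, 2 member genes and 2 transcripts were called over all origins and 1 gene in MFGRD against MFGR, because the low members were not tested. The replicate block called 2 members in FCD against FC and 6 in MFGRD against MFGR (transcripts: 1 in MCD against MC and 2 in MFGRD against MFGR), and 3 members in MCD against MC, and it changed no other count of member genes. Library weights called 5 in FCD, 4 in MFGRD and 6 in FFGRD against their preadipocytes (transcripts: 3, 4 and 1). With the span slope as covariate 2 were called in FCD and 3 in FFGRD (transcripts: 1, 2 in MFGRD and 2), and with all 8 groups in one fit 2 and 3 (transcripts: 1, 2 and 2). Quantile normalization called 1 gene in FFGRD and 2 transcripts in MFGRD, the fit without the 2 libraries with the highest CLOCK values called 1 in FFGRD, and without the 7 libraries 1 transcript was called in MCD. The number of correlations with an adjusted p below 0.05 was 1 over all libraries, 0 after quantile normalization or without the 2 farthest libraries, 6 on deviations from group means and 4 without the 7 libraries.

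Signs turned as follows, and the cause was not tested. Without the 7 libraries the log2 difference of CLOCK was -0.37 over all origins and -0.76 in FFGRD, that of CRY2 -0.24 in FCD and -0.20 in FFGRD, that of CLOCK-201 -0.37, that of NR1D2-202 -0.55, and the difference in the response of ARNTL by growth restriction -0.29. With a pseudocount of 0.1 CLOCK in FCD was 0.00158. Without the 2 libraries with the highest CLOCK values, CLOCK in FCD was 0.57, NR1D2 in FFGRD 0.18 and CLOCK-202 0.11. With library weights NR1D2 in FFGRD was 0.36, CLOCK-201 -0.0085, NR1D2-202 -0.22 and the ARNTL response -0.17. With the span slope CLOCK in FFGRD was -0.45, the ARNTL response -0.0750 and the PER1 response -0.11. After quantile normalization the ARNTL response was -0.0149 and r of CRY1 with CRY2 in preadipocytes -0.025, and r of NR1D1 with NR1D2 in differentiated cells was 0.048 without the 2 farthest libraries.

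On leaving out 1 library, CLOCK ran from -0.14 to 0.30 over all origins, from -0.82 to 0.57 in FCD, from -0.0559 to 1.34 in MFGRD and from -0.43 to 1.1 in FFGRD. CRY2 ran from -0.24 to 0.79 in FCD and NR1D2 from -0.63 to 0.18 in FFGRD. NR1D2-202 ran from -0.27 to 0.14, CLOCK-201 from -0.10 to 0.40, NR1D1-202 from -0.59 to 0.00751 and CLOCK-202 from -0.29 to 0.0371. The ARNTL response ran from -0.0786 to 0.31 and the PER1 response from -0.0110 to 0.49. Counts of members ran from 0 to 1 in FCD, 1 to 2 in MFGRD and 0 to 1 in FFGRD, and counts of transcripts from 0 to 2 in MCD and 0 to 1 in MFGRD.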
